A study of Mus musculus with 12 samples.

Results

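Pirt, 3 neurotrophic factors (Bdnf, Ntf3 and Gdnf) and 5 receptor genes (Ngfr, Ntrk2, Ntrk3, Gfra1 and Sort1) were followed in mouse nucleus pulposus, the soft centre of a spinal disc. The 9 genes were found by their symbols among the 32285 genes of the count table, and 6 of them had enough reads to be among the 15229 genes tested. They had been chosen with the difference between genotypes known, so their genotype differences are given as a description with a standard error and without a p-value. Tail discs were microdissected from 12 mice of the C57BL/6-129/SvEv background, 6 labelled WT and 6 labelled Opa1cKO, all 12 months old, and each library came from 1 mouse. In Opa1cKO mice, Opa1, which encodes a GTPase that fuses mitochondrial inner membranes, was deleted at 3 months of age with AcanCre, a tamoxifen-activated Cre recombinase driven from the aggrecan gene. Both genotypes received 100 mg/kg tamoxifen on 3 days in a row and were kept for 9 more months. AcanCre acts in cells that express aggrecan, per the labels those of disc and cartilage, and the sources used here do not give the alleles that the WT mice carried. The cell bodies of sensory neurons lie in ganglia outside the tissue that was sampled.

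Pirt is a small membrane protein known from sensory neurons, where it binds phosphoinositides and regulates the heat channel TRPV1 and the cold channel TRPM8. Neurotrophins are secreted growth factors for neurons: BDNF acts through TRKB (Ntrk2), neurotrophin-3 through TRKC (Ntrk3), and their precursors through p75NTR (Ngfr) together with sortilin (Sort1), while GDNF binds GFRA1 and signals through RET. The nucleus pulposus of a healthy disc is known as a tissue without nerves, and ingrowth of sensory fibres into degenerating discs has been linked to neurotrophins.

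Library totals ran from 45657321 to 53261644 counted reads in WT and from 37268242 to 56618266 in Opa1cKO. Levels are given in CPM, read counts scaled to the size of each library, and 3 reads, taken as the floor of detection, corresponded to 0.0528 to 0.0807 CPM. Opa1, the targeted gene, ran from 69.3 to 118 CPM in WT and from 30.2 to 47.7 CPM in Opa1cKO, with no overlap (log2 fold change -1.22, SE 0.116, adjusted p = 3.05e-05, edgeR quasi-likelihood test with Benjamini-Hochberg adjustment). The labelled sex of 4 libraries went against their sex-linked reads. WT 4, labelled female, had Y-linked reads and almost none of Xist, the RNA of the inactive X chromosome. WT 5, WT 6 and Opa1cKO 4, labelled male, had Xist reads and at most 2 Y-linked reads. By these reads, 4 libraries (WT 4 and Opa1cKO 1, 2 and 3) were of the Y-linked kind, with 10821 to 17769 Y-linked reads, and the other 8 were of the Xist kind, with 135463 to 214037 Xist reads. Genotype differences below were fitted with labelled sex as a covariate. For the 6 tested members they are also given with the sex that the reads show and without the 4 contradicted libraries, and for 10 called genes of the marker and pathway lists the calls that were lost are named. Without those 4, every WT library left was labelled female. The genotype difference of that fit thus came from WT 1, 2 and 3 against Opa1cKO 5 and 6. In bulk tissue, fewer cells of a type and less RNA per cell cannot be told apart.

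Of the 9 genes, Pirt was the one whose levels in the 2 genotypes did not overlap, where 6.41% of all tested genes had ranges that did not overlap and 10.2% were called at an adjusted p below 0.05. Since the genes were chosen on this contrast, nothing is read from that count. Pirt was near 0.4 CPM in WT and near 2.6 CPM in Opa1cKO, while Bdnf, Ntf3 and Gdnf were at or near the floor of detection in both. Sort1 was the most abundant of the 9 by far, and the other receptors overlapped between genotypes.

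Pirt (ENSMUSG00000048070) is protein-coding and lies on the plus strand of chromosome 11 from 66911981 to 66929876 in mm10, as annotated by GENCODE M21. In WT its lowest, median and highest levels were 0.195, 0.393 and 0.848 CPM, from 9 to 41 reads a library. In Opa1cKO they were 1.98, 2.68 and 3.29 CPM, from 86 to 187 reads. All 6 Opa1cKO libraries lay above every WT library, and WT 4 was the WT library nearest to them. The mean was 0.437 ± 0.244 CPM in WT and 2.62 ± 0.530 CPM in Opa1cKO (SD, n = 6 each), a ratio of means of 5.98. On the log2 scale the fitted difference was 2.88 with an SE of 0.325, and 2.57 with an SE of 0.325 when labelled sex was left out of the fit.

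**Figure D1:**
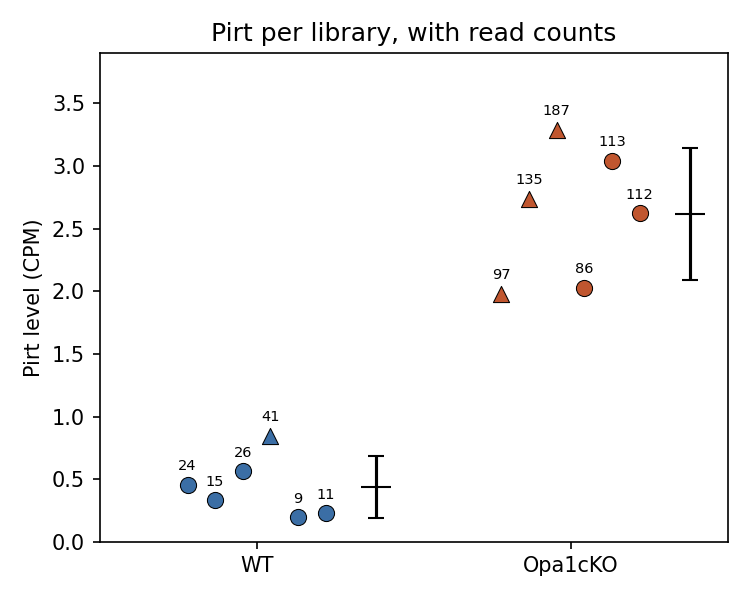
Pirt level in CPM (vertical axis) in each of the 6 WT and 6 Opa1cKO libraries, with the read count printed above each point, triangles for libraries with Y-linked reads, circles for libraries with Xist reads, and bars for the mean and SD beside each group. The highest WT library, at 0.848 CPM from 41 reads, lies below the lowest Opa1cKO library, at 1.98 CPM from 97 reads.

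Counting error was small against the gap between genotypes. WT 4 and Opa1cKO 1 were the closest libraries of the 2 genotypes, and their exact Poisson 95% intervals, 0.609 to 1.15 CPM and 1.60 to 2.41 CPM, did not overlap. These intervals cover counting error only, since reads made with PCR are not independent molecules. In TPM, which corrects for transcript length as well as depth, Pirt was at 0.479 ± 0.285 in WT and 2.87 ± 0.554 in Opa1cKO (SD, n = 6 each). An antisense gene, Gm12298, covers the whole of Pirt on the other strand, and it had 0 reads in all 12 libraries.

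The Pirt difference did not rest on the contradicted libraries or on 1 library. It was 2.47 (SE 0.315, log2) with the sex that the reads show as covariate. Without the 4 contradicted libraries it was 2.64 (SE 0.353), from WT 1, 2 and 3 against Opa1cKO 5 and 6. Leaving out each library in turn gave log2 differences of 2.68 to 3.08. Among the 8 libraries with Xist reads, Pirt ran from 0.195 to 0.564 CPM in 5 WT and from 2.03 to 3.04 CPM in 3 Opa1cKO libraries, with no overlap (log2 difference 2.84, SE 0.364). Among the 4 with Y-linked reads it was 0.848 CPM in the single WT library and 1.98 to 3.29 CPM in 3 Opa1cKO libraries.

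Sex did not give a called difference in Pirt. The labelled sex term, male over female, was -0.66 on the log2 scale (SE 0.320, adjusted p = 0.961, edgeR quasi-likelihood test with Benjamini-Hochberg adjustment over all genes tested). The genotype difference was 2.36 (SE 0.403) within labelled females and 3.55 (SE 0.418) within labelled males, and the term for the difference between them was 1.19 (SE 0.568, adjusted p = 0.797, same edgeR test). Both labelled groups held contradicted libraries, WT 4 among the females and WT 5, WT 6 and Opa1cKO 4 among the males. With the sex that the reads show, the sex term was 0.47 (SE 0.314, adjusted p = 0.819, edgeR).

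Among the 5 genes whose levels followed Pirt most closely over the 12 libraries were S100a4 (Pearson r = 0.96 of log2 CPM), Aplnr (0.96), L3mbtl3 (0.95) and Nol10 (0.93), out of 11875 ranked genes. These were tested genes that averaged at least 1 CPM, without predicted genes (symbols of Gm and digits, or ending in Rik). S100a4, a calcium-binding protein, averaged 22.3 ± 3.74 CPM in Opa1cKO and differed between genotypes by 1.12 on the log2 scale. Aplnr, the apelin receptor, was at 9.17 CPM in WT and 43.4 CPM in Opa1cKO. All 5 were called higher in Opa1cKO by edgeR, as were 5.1% of all tested genes. Pirt itself split by genotype, so a ranking by likeness to it favours such genes and nothing is read from these calls. When each genotype's mean was taken away, the closest were Spag1 (r = 0.86), S100a4 (0.85), Chsy3 (0.81), Rtf1 (0.80) and Emc8 (0.79). These correlations describe 12 libraries that share the genotype groups, and these genes are at the top of 2 rankings of 11875.

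Most listed markers of sensory neurons, where Pirt is best known, had few or no reads. Of 17 listed genes, 12 had at most 10 reads in every library and 9 had at most 2, while 4 had enough reads to be tested. Nefm, a neurofilament, and Isl1, a sensory neuron transcription factor, had none. Calca, which encodes the peptide CGRP, had 4 reads over the 6 WT libraries and 0 over the 6 Opa1cKO libraries, Tubb3 had 4 and 4, Snap25 had 8 and 2, and Rbfox3 had 0 and 1. The summed level of the list was 12.8 ± 2.87 CPM (range 10.1 to 17.9) in WT and 24.7 ± 6.75 CPM (range 16.0 to 36.4) in Opa1cKO, with 5 of 6 Opa1cKO libraries above every WT library (two-sided exact permutation test, p = 0.00433, adjusted over 11 marker lists 0.0238, n = 6 each). Uchl1, a ubiquitin hydrolase abundant in neurons and present in other cells, made up this difference. It was at 6.60 ± 1.23 CPM in WT and 18.6 ± 4.80 CPM in Opa1cKO, with no overlap (log2 fold change 1.47, SE 0.181, adjusted p = 0.000249, edgeR). Without Uchl1 the list summed to 6.23 ± 2.32 CPM in WT and 6.07 ± 2.12 CPM in Opa1cKO (SD, n = 6 each).

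Of the channels of sensory endings, those that Pirt is known to regulate were scarce too. Trpv1, the capsaicin and heat channel that Pirt regulates, had 21 reads over the WT libraries and 68 over the Opa1cKO libraries and was too low to test, as was Trpm8 with 14 and 15. P2rx3, an ATP-gated channel of pain fibres, averaged 0.998 ± 0.200 and 0.595 ± 0.169 CPM in WT and Opa1cKO, and its log2 difference of -0.67 did not pass (SE 0.288, adjusted p = 0.163, edgeR). Of the 23 listed channels and Pirt partners, 15 were tested, 1 was higher and 1 was lower, with a median log2 change of 0.12 against 0.01 over all genes. Trpv2, a calcium-permeable channel of the TRPV family, ran from 0.0836 to 0.420 CPM in WT and from 0.528 to 0.843 CPM in Opa1cKO. Trpv2 thus rose with no overlap between genotypes (log2 fold change 1.63, SE 0.368, adjusted p = 0.0130, edgeR). Its adjusted p was 0.0578 without Opa1cKO 6 and 0.210 without the 4 contradicted libraries (edgeR). Calm3, one of the calmodulin genes, was lower in Opa1cKO, averaging 98.3 CPM in WT (range 76.2 to 122) and 76.8 CPM in Opa1cKO (range 59.5 to 87.1) (log2 fold change -0.42, SE 0.122, adjusted p = 0.0420, edgeR), and kept its call in 4 of the 12 fits that each left out a library.

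Among the ligands, all 3 genes were too low to test and most libraries had a handful of reads. Bdnf (chromosome 2, 109674700 to 109727007, plus strand), the ligand of TRKB, had 10 reads over the 6 WT libraries (exact Poisson 95% interval 4.80 to 18.4) and 18 over the 6 Opa1cKO libraries (10.7 to 28.4). No Bdnf read was found in 3 WT and 2 Opa1cKO libraries, and the highest library, Opa1cKO 3, had 8. Its intervals in the 2 genotypes overlapped. They cover counting error of pooled reads and leave out the spread between mice, so neither a difference nor its absence is read from them.

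Ntf3 (chromosome 6, 126101412 to 126166910, minus strand), the ligand of TRKC, had 9 reads in WT 4 and 0 in the other 11 libraries. It was thus listed with reads in 1 library alone, and the 0 reads of the 6 Opa1cKO libraries together had an exact Poisson 95% interval of 0 to 3.69 reads. Gdnf (chromosome 15, 7810846 to 7837575, plus strand), the founding ligand of its family, had 14 reads over the WT libraries (95% interval 7.65 to 23.5) and 32 over the Opa1cKO libraries (21.9 to 45.2). In single libraries Gdnf ran from 0 to 5 reads in WT and from 0 to 12 in Opa1cKO, so the genotypes overlapped, and 3 Opa1cKO libraries lay above every WT library.

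The 6 other listed ligands were also too low to test. Artn had 26 reads over the WT libraries and 73 over the Opa1cKO libraries, Gdf15 had 47 and 107, Nrtn had 26 and 25, and Pspn had 5 and 8. Ntf5, which encodes neurotrophin-4, had no read in any library.

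**Figure D2:**
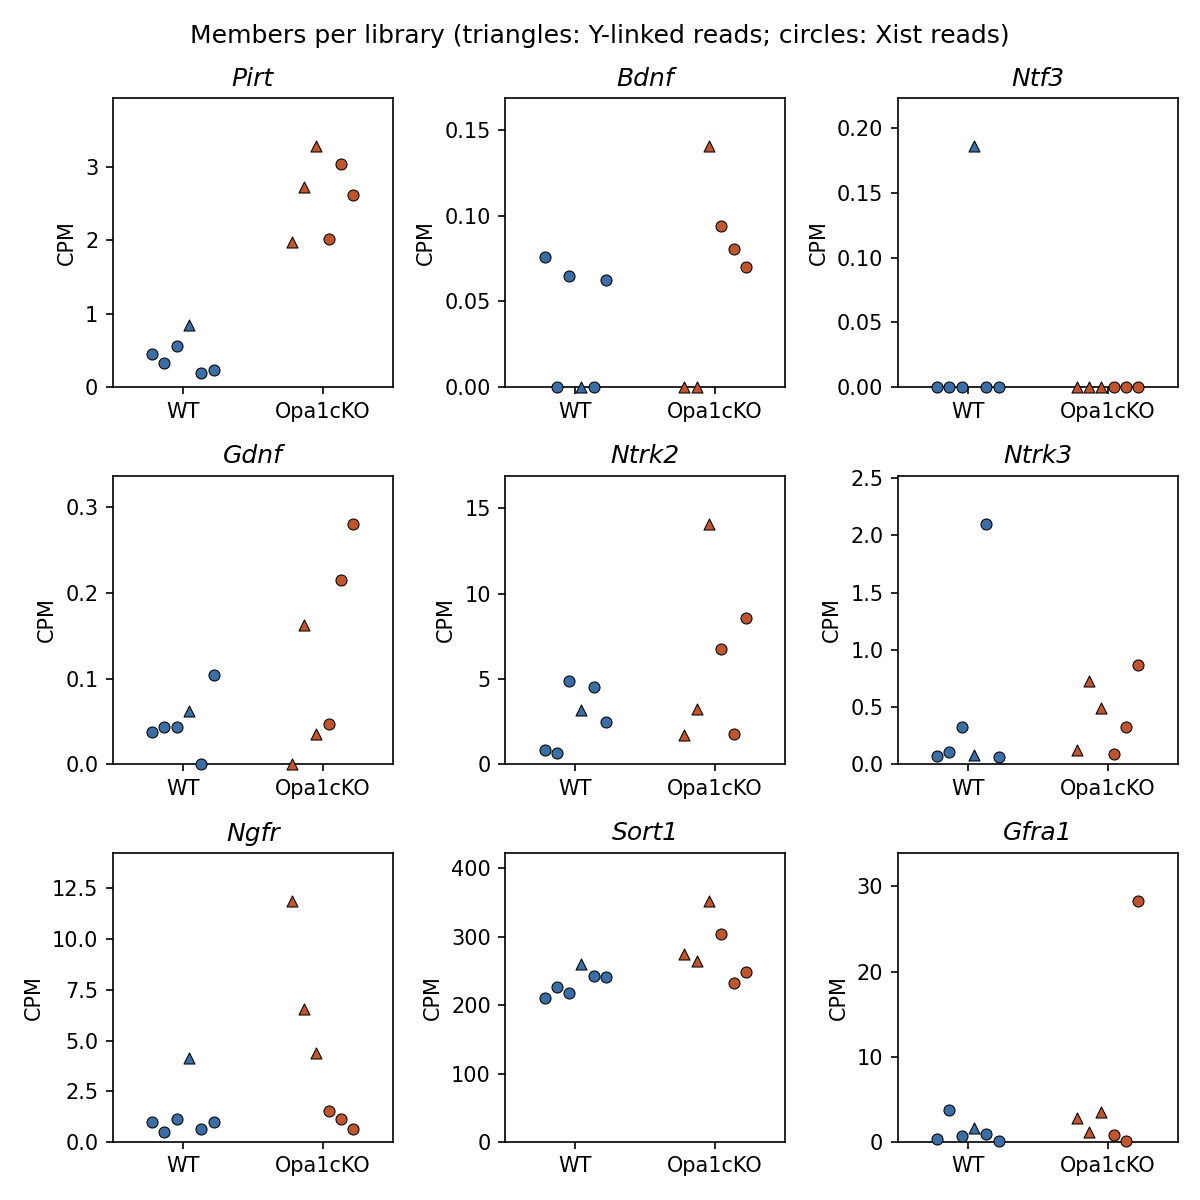
Level in CPM (vertical axes, each from 0 and on its own scale) of the 9 genes in each of the 6 WT and 6 Opa1cKO libraries, as triangles for libraries with Y-linked reads and circles for libraries with Xist reads. Pirt is the panel whose genotypes do not overlap, Gfra1 has its highest point at 28.3 CPM in Opa1cKO 6, and Ntf3 has reads in WT 4 alone.

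Ngfr (chromosome 11, 95568818 to 95587735, minus strand), the low-affinity receptor p75NTR, split with the sex-linked reads, while the 2 genotypes overlapped. In WT its lowest, median and highest levels were 0.509, 1.00 and 4.14 CPM. In Opa1cKO they were 0.655, 2.95 and 11.9 CPM. The 3 Opa1cKO libraries above every WT library were Opa1cKO 1, 2 and 3. Mean levels were 1.41 ± 1.36 and 4.35 ± 4.32 CPM (SD, n = 6 each), and the fitted log2 difference of 1.00 was smaller than its SE of 1.03.

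Split by the reads, the 4 libraries with Y-linked reads ran from 4.14 to 11.9 CPM and the 8 with Xist reads from 0.509 to 1.51 CPM. No library of either kind fell within the range of the other. WT 4, the single WT library with Y-linked reads, had 200 Ngfr reads, against 23 to 53 in the other WT libraries. Opa1cKO 1, 2 and 3 had 582, 323 and 250 reads, against 64, 42 and 28 in Opa1cKO 4, 5 and 6. In a fit with the sex that the reads show, chosen after the data were seen, Ngfr was higher in libraries with Y-linked reads by 2.60 on the log2 scale (SE 0.321, adjusted p = 0.00362, edgeR quasi-likelihood test with Benjamini-Hochberg adjustment over all genes tested).

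That fit called 0.0394% of the genes tested in either direction, which was 6 of 15229, and 0.00657% as higher with Y-linked reads. Ngfr was the 1 higher gene. The 5 lower genes, Xist, Kdm5c, Kdm6a, Eif2s3x and 5530601H04Rik, all lie on chromosome X, while Ngfr lies on chromosome 11. The Y-linked genes counted here had at most 4 reads together in any library of the Xist kind and did not enter that fit. Leaving out each library in turn gave Ngfr log2 differences of 2.29 to 2.79, with adjusted p between 0.00582 and 0.0399 (edgeR), the highest without WT 4. With DESeq2 the Ngfr term was 2.61 (adjusted p = 1.20e-11), in a fit that called 26 genes higher and 40 lower. The 4 libraries with Y-linked reads carry the title numbers 369, 370, 372 and 373, next to each other in a series from 365 to 384. The sources used here do not say what these numbers stand for, so sex and whatever else those mice shared cannot be told apart.

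With the sex that the reads show in the fit, the Ngfr genotype difference was 0.51 (SE 0.321, log2), and among the 8 libraries with Xist reads it was 0.35 (SE 0.381). Without the 4 contradicted libraries it was 0.01 (SE 0.513). By labelled sex the same difference was -0.92 (SE 0.821) in females and 2.88 (SE 0.826) in males, a change of sign. The labelled females included WT 4, which had Y-linked reads. Of the labelled males, WT 5, WT 6 and Opa1cKO 4 had Xist reads and Opa1cKO 1, 2 and 3 had Y-linked reads. These 2 differences thus mix genotype with the split by sex-linked reads. The term for the difference between labelled sexes, 3.80 (SE 1.30), did not pass (adjusted p = 0.797, edgeR), and the labelled sex term was 0.88 (SE 1.03, adjusted p = 0.961, edgeR).

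**Figure D3:**
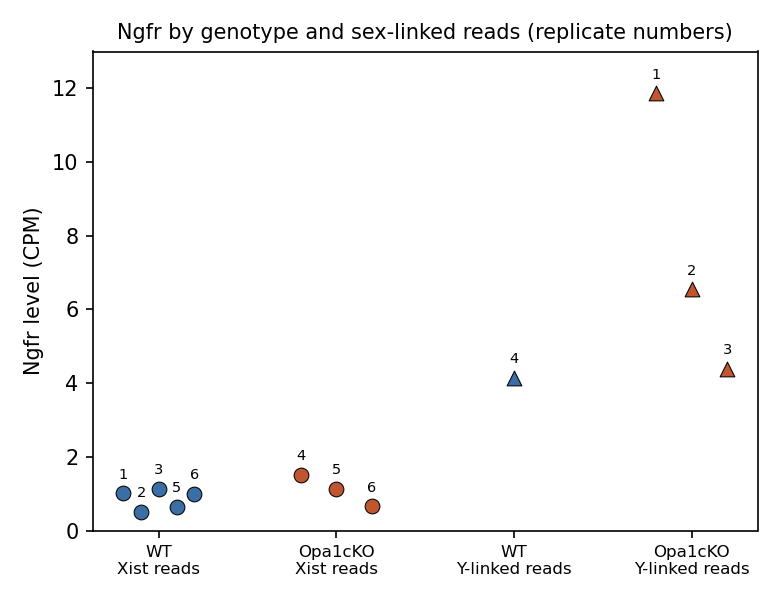
Ngfr level in CPM (vertical axis) in the 12 libraries, grouped by genotype and by the sex-linked reads present, with the replicate number above each point, circles for Xist reads and triangles for Y-linked reads. The 4 libraries with Y-linked reads, from 4.14 to 11.9 CPM, all lie above the 8 with Xist reads, whose highest is 1.51 CPM.

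Schwann cells, the glia of peripheral nerves, are a known source of Ngfr. Their listed markers summed to 469 ± 33.8 CPM (range 419 to 516) in WT and 474 ± 60.5 CPM (range 413 to 588) in Opa1cKO (two-sided exact permutation test, p = 0.892, n = 6 each), nearly all of it Pmp22 and S100b, which other cells express. Sox10, a defining transcription factor, had 1 read over the 12 libraries, and Foxd3 had 0. Of the 15 listed markers, 10 were tested, 2 were called higher and 0 lower, where 10.2% of all tested genes were called. Log2 changes were above 0 in 8 of the 10, with a median of 0.40 against 0.01 over all genes. Without Pmp22 and S100b the list ran from 33.9 to 48.0 CPM in libraries with Y-linked reads and from 30.3 to 55.5 CPM in those with Xist reads, so it did not separate them as Ngfr did. By genotype the shortened list averaged 32.8 ± 2.61 CPM in WT (range 30.3 to 37.3) and 44.7 ± 6.70 CPM in Opa1cKO (range 36.3 to 55.5). This rise was not tested, since the permutation test above was run on the full list alone. Dhh, a hedgehog ligand, rose from a mean of 0.0572 CPM to 0.657 CPM (log2 change 3.65, SE 0.607, adjusted p = 0.00219, edgeR) and Pllp, a myelin protein, from 0.212 to 0.843 CPM (2.34, SE 0.651, adjusted p = 0.0363, edgeR), the latter losing its call in 8 of the 12 fits that left out a library. Both levels were small beside the rise of the shortened list. The WT mean of Dhh lay at the floor of detection, 0.0528 to 0.0807 CPM. Dhh thus entered the test mainly through its Opa1cKO reads, so nothing is read from its call. Over the 24 alternatives that tested Dhh, its log2 change ran from 0.66 to 4.82. Whether these cells had a part in the Pirt or receptor differences was not tested.

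Sort1 (chromosome 3, 108284082 to 108361511, plus strand), the sorting receptor that pairs with p75NTR, was the only one of the 9 at a high level. Its lowest, median and highest levels were 210, 234 and 260 CPM in WT and 233, 269 and 352 CPM in Opa1cKO. The genotypes overlapped, with 4 of 6 Opa1cKO libraries above every WT library. The means were 233 ± 18.3 and 279 ± 43.2 CPM (SD, n = 6 each), a log2 difference of 0.19 with an SE of 0.0968. With the sex that the reads show it was 0.20 (SE 0.0988), and without the 4 contradicted libraries 0.14 (SE 0.152). In TPM, Sort1 stood above 96.4% of the 32128 symbols of the table in WT.

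Ntrk2 (chromosome 13, 58806569 to 59133970, plus strand) encodes TRKB, the receptor tyrosine kinase for BDNF. It ran from 0.664 through a median of 2.83 to 4.90 CPM in WT and from 1.69 through 5.01 to 14.1 CPM in Opa1cKO. The genotypes overlapped, and Opa1cKO 3, 6 and 4 lay above every WT library. Ntrk2 averaged 2.76 ± 1.78 and 6.03 ± 4.83 CPM (SD, n = 6 each), a log2 difference of 1.00 with an SE of 0.647. Without Opa1cKO 6 it was 0.46 (SE 0.804), with the sex that the reads show 1.07 (SE 0.676), and without the 4 contradicted libraries 1.28 (SE 1.15).

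Ntrk3 (chromosome 7, 78175959 to 78738012, minus strand) encodes TRKC, the receptor for neurotrophin-3. In WT its lowest, median and highest levels were 0.0627, 0.0967 and 2.10 CPM, and in Opa1cKO 0.0942, 0.408 and 0.866 CPM. WT 5, with 97 reads, stood above all other libraries, while the other WT libraries had 3 to 15 reads and the Opa1cKO libraries 4 to 37. The log2 difference was 0.06 (SE 0.830), and without WT 5 it was 2.12 (SE 0.706), so this value depended on 1 library. Without Opa1cKO 6 it was -0.70 (SE 0.876), with the sex that the reads show 0.23 (SE 1.06), and without the 4 contradicted libraries, WT 5 among them, 1.80 (SE 0.858).

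Gfra1 (chromosome 19, 58235604 to 58455909, minus strand) encodes the GDNF-binding co-receptor of RET. Its lowest, median and highest levels were 0.125, 0.781 and 3.74 CPM in WT and 0.108, 1.96 and 28.3 CPM in Opa1cKO. Opa1cKO 6, with 1208 reads, stood above all other libraries, which had 4 to 202, and the lowest of the 12 was also an Opa1cKO library, Opa1cKO 5. The log2 difference was 2.66 (SE 1.01), and without Opa1cKO 6 it was 0.70 (SE 1.47). With the sex that the reads show it was 2.33 (SE 1.17), and without the 4 contradicted libraries 3.18 (SE 1.64), both with Opa1cKO 6 in the fit. Opa1cKO 6 also held 12 Gdnf reads, the highest Gdnf count of the 12 libraries.

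Partners of these receptors did not pass the test. Of 15 other listed receptors and co-receptors, 8 were tested and 0 were called in either direction by edgeR, with a median log2 change of -0.07 against 0.01 over all genes. Ret, the signalling kinase for GFRA1, was at 0.422 ± 0.215 CPM in WT and 0.385 ± 0.490 CPM in Opa1cKO. Nearest to the threshold were Rtn4r, a Nogo receptor that can pair with p75NTR (0.127 ± 0.0749 and 0.375 ± 0.221 CPM, log2 difference 1.61, adjusted p = 0.109, edgeR), and Ncam1, an adhesion molecule that binds GDNF (251 ± 24.8 and 232 ± 19.8 CPM, log2 difference -0.17, adjusted p = 0.199, edgeR).

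Compared per length, in TPM, the order in WT was Sort1 (141 ± 16.5 TPM), Ngfr (1.90 ± 1.94), Gfra1 (1.03 ± 1.12), Ntrk2 (0.661 ± 0.431), Pirt (0.479 ± 0.285), Ntf3, Ntrk3, Gdnf and Bdnf, with the last 4 below 0.1 TPM on average (SD, n = 6). Only Sort1 and Ngfr were neighbours whose ranges did not overlap, so the order of neighbours below Sort1 was not fixed beyond the spread of the libraries. Genes further apart could separate, as the lowest Pirt library, at 0.216 TPM, lay above the highest of Gdnf (0.128) and Bdnf (0.0519). In Opa1cKO Pirt stood at 2.87 ± 0.554 TPM, behind Sort1, Ngfr and Gfra1 by mean and ahead of Ntrk2 at 1.44 ± 1.12 TPM. Ngfr was above Pirt in Opa1cKO 1, 2 and 3, the libraries with Y-linked reads. In Opa1cKO 4, 5 and 6 Ngfr was below Pirt, at 1.98, 1.48 and 0.919 TPM against 2.18, 3.26 and 3.02 TPM. Gfra1 was above Pirt in 2 of 6 Opa1cKO libraries, and its median of 1.67 TPM lay below that of Pirt, 3.05 TPM, while its mean held the 24.9 TPM of Opa1cKO 6. Pirt was above Ntrk2 in 6 of 6 Opa1cKO libraries, whereas Ntrk2 was above Pirt in 3 of 6 WT libraries. Sort1 and Ngfr, and Ntrk2 and Gdnf, were the neighbours that did not overlap there.

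The 6 tested genes did not vary as 1 block. Over the 15 pairs, Pearson r of log2 CPM over 12 libraries ran from -0.13 to 0.66, and with each genotype's mean taken away from -0.27 for Ngfr with Ntrk3 to 0.57 for Ntrk2 with Sort1. Pirt with Ngfr gave 0.53, and 0.31 with the genotype means taken away. These values describe libraries that share the genotype groups.

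Downstream of the receptors, 1 of the tested relay genes was called, and 4 response genes were higher. Over all 6 lists of non-members, 75 of 109 genes were tested, of which 6 were higher and 2 lower in Opa1cKO, a share of 10.7% beside 10.2% over all genes (5.1% higher and 5.13% lower). Of 28 adaptor and relay genes, 27 were tested, 0 were higher and 1 was lower by edgeR, with a median log2 change of 0.03. The lower one was Gab1, a docking protein of receptor tyrosine kinases, at 130 ± 17.2 CPM in WT and 106 ± 11.1 CPM in Opa1cKO (log2 fold change -0.35, SE 0.0943, adjusted p = 0.0298, edgeR), which lost its call without WT 6, Opa1cKO 1 or Opa1cKO 6. Of 15 genes that process pro-neurotrophins, 10 were tested with a median log2 change of -0.02.

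**Figure D4:**
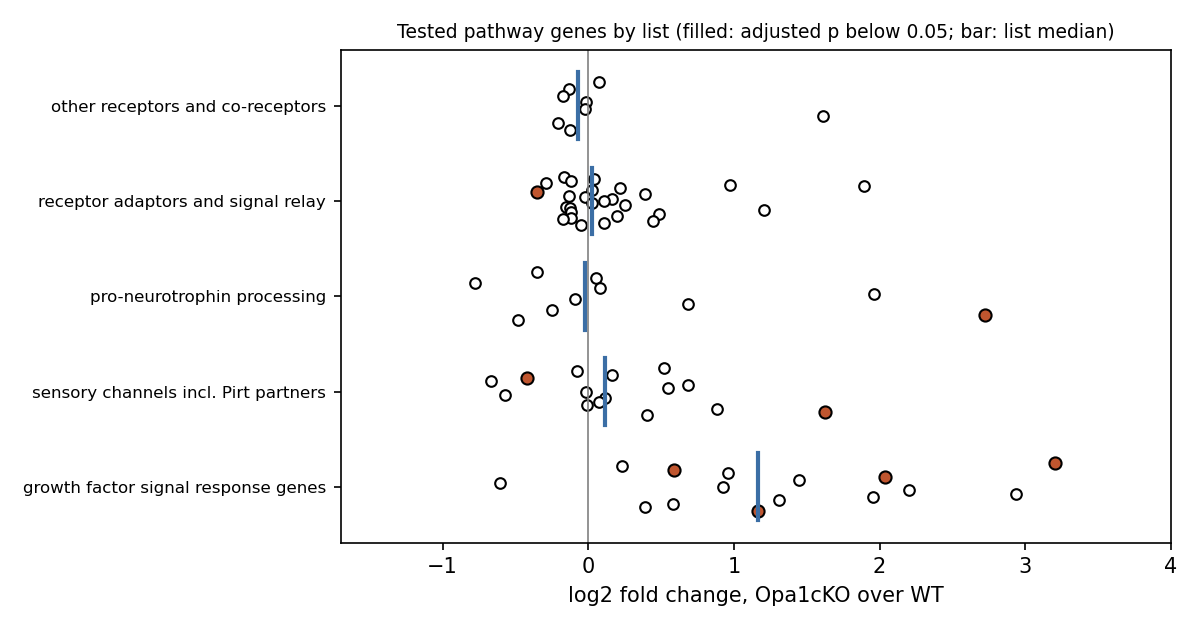
Log2 fold change of Opa1cKO over WT (horizontal axis) for each tested gene of the 5 non-member lists with tested genes, as filled points where the adjusted p was below 0.05 and open points otherwise, with a bar for each list's median. The median of the response genes lies at 1.17, and those of the 4 other lists between -0.07 and 0.12.

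Of 22 genes that respond to growth factor signals, 15 were tested, 4 were higher and 0 lower by edgeR, and their median log2 change was 1.17 against 0.01 over all genes. Arc, an immediate early gene of neurons that other cells can switch on, was higher in Opa1cKO with no overlap, at 0.968 ± 0.834 CPM in WT and 9.52 ± 5.96 CPM in Opa1cKO (log2 fold change 3.20, SE 0.458, adjusted p = 0.00120, edgeR). Egr1, an early transcription factor, rose from 285 ± 350 to 1096 ± 433 CPM (2.04, SE 0.570, adjusted p = 0.0465, edgeR). Spry2, an inhibitor of receptor tyrosine kinase signalling, rose from 2.80 ± 0.654 to 6.16 ± 3.69 CPM (1.17, SE 0.334, adjusted p = 0.0423, edgeR), and Dusp5, an ERK phosphatase, from 10.6 ± 2.17 to 17.5 ± 5.14 CPM (0.59, SE 0.160, adjusted p = 0.0322, edgeR). Arc kept its call without any 1 library, while Egr1, Spry2 and Dusp5 lost theirs in 9, 8 and 5 of those 12 fits. Many stimuli besides neurotrophins act on these genes, and a link to the receptors was not tested.

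Of the called genes named with the marker and pathway lists, Uchl1 and Arc kept their calls both with the sex that the reads show (adjusted p = 3.33e-05 and 0.00511, edgeR) and without the 4 contradicted libraries (0.0163 and 0.0229, edgeR). With the sex that the reads show, the calls of Gab1 (adjusted p = 0.115), Calm3 (0.0726), Egr1 (0.0618) and Pllp (0.0689) were lost, by edgeR. Without the contradicted libraries 8 were left in the fit, and its genotype term set WT 1, 2 and 3 against Opa1cKO 5 and 6. In that smaller comparison the calls of Gab1 (adjusted p = 0.183), Pllp (0.145), Trpv2 (0.210), Dhh (0.109), Spry2 (0.132) and Dusp5 (0.236) were lost, by edgeR. All 10 genes kept their direction in both fits.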

How the data were processed

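Total RNA of tail nucleus pulposus from 12 mice was sequenced after ribosomal RNA depletion with a stranded kit, from 50 ng of RNA and 14 PCR cycles, per the labels' protocols. Reads were aligned with STAR 2.7.11b to mm10, per the submitters' processing notes. The sources used here do not name the read counter or say whether it used strand, so reads of overlapping genes could not be traced. The authors deposited whole-number read counts of 32285 genes, which were used for the main results, and TPM values of 32128 symbols, which the authors had scaled by length and depth and which were used for the order of levels and as an alternative. TPM symbols matched 14922 of the 15229 tested genes. Library totals were 37268242 to 56618266.

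Counts were analysed with edgeR 4.0.16 (R 4.3.3; TMM scaling, filterByExpr with a minimum count of 10, robust quasi-likelihood fit) with labelled sex and genotype over all 12 libraries, and p-values were Benjamini-Hochberg adjusted over all genes tested, with a threshold of 0.05. The fit was tested on simulated data. Marker lists were summed in CPM and compared with two-sided exact permutation tests (scipy 1.17.1, smallest p 0.00216). Alternatives were DESeq2 1.42.0, limma 3.58.1 on counts and on log2(TPM + 1) and log2(TPM + 0.1), other scalings, filters and covariates, and each library left out. Fits with the sex that the reads show, or on fewer libraries chosen by it, were added after the data were seen. Counting intervals are exact Poisson intervals at 95%, and the floor is 3 counts a library. Correlations used log2(CPM + 0.1). Positions are from GENCODE M21, matched by identifier for 32158 genes.

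The 9 genes and all lists were chosen with earlier results of these data known. Named genes were the 9 members, the called genes of each pathway list (4 at most, by p, or the 2 with the smallest p where none was called), up to 3 called genes of each marker list, and the 5 genes most like Pirt on each measure. Ret, the other ligands, Trpv1, Trpm8, P2rx3 and the low-count neuronal and Schwann markers were named outside that rule, after their values were seen. Some genes that the rule covers are not reported here. All other called markers were Cspg4 (adjusted p = 0.0426) and Cd68 (adjusted p = 0.000152), both higher, and Csf1r (0.00468), Mpeg1 (0.0138) and Phex (0.0100), lower in Opa1cKO by edgeR. Of the other marker sums, pericyte and smooth muscle rose from 606 ± 56.9 to 925 ± 317 CPM (exact permutation test, adjusted p = 0.0238). The rest did not pass, with adjusted p of 0.0873 for keratinocyte, 0.110 for nucleus pulposus and for immune, 0.139 for fibroblast, 0.252 for endothelial, 0.432 for chondrocyte and 0.719 for muscle and for bone markers (exact permutation tests).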

Additional observations from a re-analysis of the deposited data

Results flagged for a closer look

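In 17 groups of 6 libraries in which a library far from the others was looked for, 4 had one by Dixon's criterion. Chance alone gives about 1 in 20 for normally distributed values. That rate need not hold for low and skewed levels such as these, so no excess is read from the 4. Gfra1 stood at 28.3 CPM in Opa1cKO 6. Ngfr stood at 4.14 CPM in WT 4, the WT library with Y-linked reads. Ntrk3 stood at 2.10 CPM in WT 5. Ntf3 stood at 0.186 CPM in WT 4, from 9 reads, with 0 in the other 5 WT libraries.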

How the results depend on the processing

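Pirt kept its direction in all 27 alternatives. Its log2 difference was 1.48 on log2(TPM + 1), where the pseudocount shrinks low genes, 2.36 in labelled females and 3.55 in labelled males, and 2.68 to 3.08 with each library left out. Ntrk2, Gfra1 and Sort1 were also above 0 in all 27, Ngfr in 26 of 27 (not in labelled females) and Ntrk3 in 16 of 26. Of all genes, 777 were higher and 781 lower in Opa1cKO. DESeq2 called 1189 higher, labelled females alone 167 higher and 133 lower, labelled males alone 161 and 258, and the fit without the 4 contradicted libraries 188 and 137, the last 3 with fewer samples. Leaving out each library gave 323 to 1002 higher and 496 to 1008 lower, the fewest of both without Opa1cKO 6, and 463 and 510 without WT 6. Of the pathway genes, 6 were higher and 2 lower, against 13 and 4 with DESeq2, 0 and 0 in labelled males, 0 lower in labelled females, 1 lower without the contradicted libraries and 3 higher in the 8 libraries with Xist reads. Leaving out each library gave 2 to 11 higher (2 without Opa1cKO 6, 3 without WT 2 or WT 5, 10 without WT 6, 11 without Opa1cKO 3 or 5) and 0 to 3 lower (0 without WT 6 or Opa1cKO 1, 1 without WT 2, WT 3, Opa1cKO 5 or Opa1cKO 6). For labelled sex edgeR called 0 genes (586 at an unadjusted p below 0.05), DESeq2 4 higher and 1 lower in males, edgeR without a low-count filter 1 higher, and with the sex that the reads show 1 higher and 5 lower. Leaving out each library gave 0 to 2 higher and 0 to 1 lower. For genotype by labelled sex edgeR called 0 genes (899 unadjusted), DESeq2 0 higher and 6 lower, and leaving out each library gave 0 to 3 higher and 0 to 19 lower, the most without Opa1cKO 5. Beyond what is stated, the cause of these shifts was not tested. With the replicate number as a block in place of labelled sex, 601 genes were higher and 668 lower, 10 pathway genes were higher and 1 lower, and Pirt was at 2.68. The same-numbered libraries shared only a number: their deviations correlated from -0.33 to 0.12, above 0.1 in 1 of 6 pairs, and in 0 pairs was each library closest to its own number. Members at or below the floor of 3 reads are limited by depth.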
